A study of Mus musculus with 96 samples.

Results

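Liver gene expression of 8 C3H/HeJ mice kept on a calorie-restricted diet was compared with that of 3 other inbred strains on the same diet. The members are the 8 mice whose titles name C3H liver and calorie restriction, of 96 mice in the series, and each was measured on an array of its own. The comparison groups were the restricted 129S1/SvImJ, C57BL6/J and DBA/2J mice, 8 of each, and each strain's mean received the same weight whatever its spread. The CBA/J and B6C3F1/J mice of the series entered no comparison. All mice were male. They arrived from Jackson Laboratory at 6 weeks of age, lived in single cages on 84 kcal per week of an AIN93M-based diet for 2 weeks, and from 8 weeks were given either that control diet or 25% fewer calories. Livers were collected when the mice were 22 weeks old, 14 weeks into the feeding. None of the 4 strains carries a transgene or other engineered allele per the labels, so a strain difference covers the whole genetic background. The hour of collection and the time since the last meal are not stated in the labels. To find which strain differences were seen on this diet alone, the same comparison was made between the 4 control-fed groups of 8, and the 2 strain differences were then set against each other.

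As background, restricting calories moves the liver between fuel storage in the hours after a meal and fuel release before the next, through insulin, glucagon, glucocorticoids and the SREBP and PPAR transcription factors that set lipid synthesis and oxidation. Many hepatic cytochrome P450, sulfotransferase and urinary protein genes also follow the pulsed or steady release of growth hormone, which makes them male- or female-biased. A molecular clock drives daily rhythms of many of the same genes and takes timing cues from feeding. C3H/HeJ is known for a loss-of-function variant of Tlr4, the endotoxin receptor, and C3H mice for low hepatic type 1 deiodinase.

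Signals are MAS5 intensities on a log2 scale, and 13630 genes were tested. Over the 4 restricted groups the mean array median of the log2 signal was 6.44 in C3H/HeJ, 6.81 in 129S1/SvImJ, 6.38 in C57BL6/J and 7.08 in DBA/2J. DBA/2J restricted replicate 6 stood apart, with an array median of 8.295, a 3' minus 5' log2 difference of 2.51 for Gapdh and 4.86 for beta-actin, and a lowest correlation of 0.601 with arrays of its group. C57BL6/J restricted replicate 2 stood apart in many named genes, although its array median was 6.26. Across the 146 differences of named genes, leaving out the DBA/2J array changed the side of the threshold of 4 and leaving out the C57BL6/J array that of 1, and the largest shifts were 0.26 and 0.10. By the 1000 genes that vary most between strains, all 64 arrays of the 4 strains lay nearest to their own strain. These genes were picked from the means of the labelled strains with every array included, which favours the labelled strain. The hepatocyte markers Alb, Ttr, Apoa1, Fgb, Cps1 and Ahsg were high in every group. In the strain comparison 0 of these 6 were called, beside 20.7% of all genes. The single strains were not equal. The summed log2 level of these markers had medians of 18.97 in C3H/HeJ, 19.07 in 129S1/SvImJ, 18.16 in C57BL6/J and 19.56 in DBA/2J. Its highest C57BL6/J value, 18.42, lay below the lowest C3H/HeJ value, 18.8.

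On the restricted diet 2825 of 13630 genes (20.7%) differed between C3H/HeJ and the mean of the 3 strains (limma, Benjamini-Hochberg adjusted p under 0.05), 1563 higher (11.5%) and 1262 lower (9.26%). The median difference over all genes was 0.00. Most of these calls were not shared by every single comparison. C3H/HeJ differed from 129S1/SvImJ in 2441 genes (17.9%, with 9.06% higher and 8.85% lower), from C57BL6/J in 2284 (16.8%, with 9.14% and 7.62%) and from DBA/2J in 4591 (33.7%, with 18.9% and 14.8%). These 3 tests share the C3H/HeJ mice. Against the mean, 883 of the called genes were at least 1.5-fold higher (6.48%) and 850 at least 1.5-fold lower (6.24%). In 450 genes (3.3%) the difference was called in 1 direction against the mean and against each strain, 262 higher (1.92%) and 188 lower (1.38%). The 8 C3H/HeJ mice lay above all 24 others in 50 genes (0.367%) and below all of them in 26 (0.191%). Without DBA/2J restricted replicate 6 the counts against the mean were 1741 higher and 1443 lower.

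Lrrc24, Cyp46a1, Cyp2b13 and Hbegf led the genes that were higher in C3H/HeJ and called against each strain. For Lrrc24, a leucine-rich repeat membrane protein, the lowest, median and highest log2 signals were 9.62, 10.25 and 10.58 in C3H/HeJ and 1.55, 4.24 and 6.84 in the other 24 mice, a difference of 6.04 ± 0.59, adjusted p = 1.59e-12. Every other mouse was near or below the mean array median of 6.65 for this gene, so the size of the difference is uncertain. For Cyp46a1, a cholesterol hydroxylase best known from brain, the same values were 12.01, 12.44 and 13.27 against 3.48, 7.46 and 9.19, a difference of 5.38 ± 0.40, adjusted p = 7.46e-17. For Hbegf, a growth factor of the EGF family, they were 9.94, 10.50 and 10.71 against 3.97, 6.94 and 8.25, a difference of 3.75 ± 0.30, adjusted p = 3.54e-16. In each of these 3 genes the 8 C3H/HeJ mice lay above all others without overlap.

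Of the other leading genes, Corin, the protease that activates natriuretic peptide, differed by 3.41 ± 0.46. The Corin median of the 24 other mice was 4.56, below the mean array median of 6.65, so the size of this difference is uncertain. Hao2, a female-biased peroxisomal oxidase, differed by 2.76 ± 0.48, and Fabp5, a fatty acid carrier, by 2.47 ± 0.38. The differences of 1810008I18Rik, Abhd1 and the transcription factor Tcf24 lay between 2.62 and 2.78. These genes were not equally far from every strain. For 1810008I18Rik the medians were 13.44 in C3H/HeJ, 12.40 in 129S1/SvImJ, 11.66 in C57BL6/J and 8.27 in DBA/2J, and for Corin the DBA/2J mice reached 8.12 against a C3H/HeJ range of 7.74 to 8.49. All of these but Cyp2b13, described with the diet-dependent genes, were also called higher on the control diet.

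Dio1, the type 1 deiodinase that activates thyroid hormone, was among the genes lower in C3H/HeJ. Its lowest, median and highest log2 signals were 6.28, 7.85 and 9.70 in C3H/HeJ and 9.90, 13.12 and 14.18 in the other 24 mice, with no overlap and a difference of -4.74 ± 0.30, adjusted p = 1.58e-19. Pparg, the nuclear receptor of fat storage, was at 1.66, 3.34 and 5.74 against 5.54, 8.00 and 9.05, a difference of -4.24 ± 0.37, adjusted p = 1.86e-14. Of the other mice only DBA/2J restricted replicate 6 fell within the C3H/HeJ range of Pparg, and the C3H/HeJ mice lay below the mean array median. Ccdc30 and the chemokine Ccl27a also separated all 8 mice from the other 24, at -3.88 ± 0.33 and -3.12 ± 0.18.

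Steroid enzymes stood among the genes that were lower. Sult1e1, the oestrogen sulfotransferase, was at 2.05, 4.49 and 6.33 in C3H/HeJ against 5.33, 8.56 and 11.88 in the others, a difference of -3.89 ± 0.50. Cyp17a1, a steroid hydroxylase, was at 4.28, 8.16 and 8.30 against 4.57, 11.44 and 13.59, a difference of -3.65 ± 0.53, adjusted p = 3.87e-07. The lowest Cyp17a1 value among the others came from DBA/2J restricted replicate 6, and without that array the difference was -3.90. Rassf4, a Ras-association protein, was -5.42 ± 0.44 and Ube2u, an ubiquitin-conjugating enzyme, -2.95 ± 0.34. The 2 other probe sets of Rassf4 were also called lower, at -0.94 and -4.46. With all 96 arrays the gene was read from the former and was not called.

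**Figure D1:**
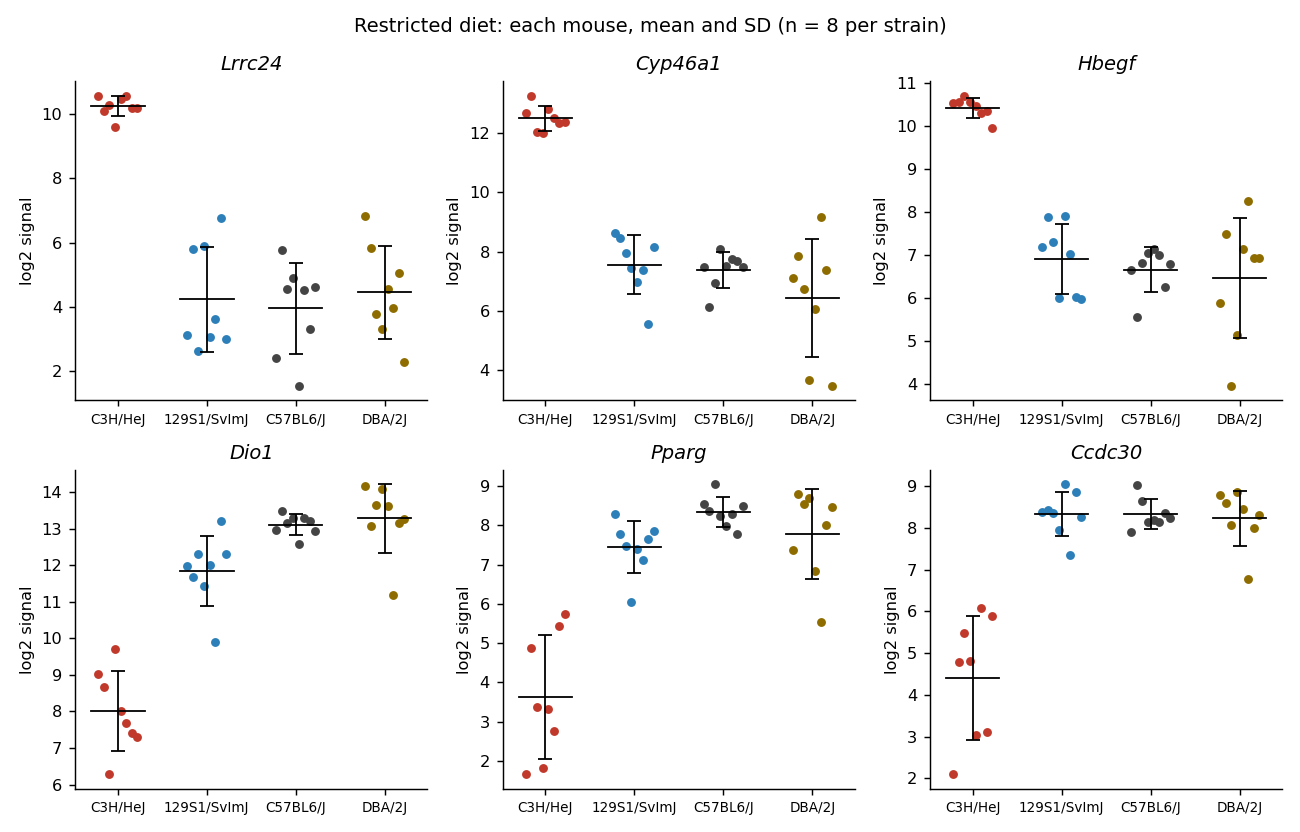
Log2 signal of Lrrc24, Cyp46a1, Hbegf, Dio1, Pparg and Ccdc30 in each restricted mouse of the 4 strains, with the mean and SD of each group (n = 8). C3H/HeJ lies above all 24 other mice in the upper row, below all of them for Dio1 and Ccdc30, and overlaps with 1 DBA/2J mouse for Pparg.

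Several of these directions depend on the probe set read. Of 1491 called genes with more than 1 probe set, 475 had another called the same way and 94 another called the opposite way. Hsd17b13, a lipid droplet enzyme, was -4.90 ± 0.13 on its brighter probe set and 4.53 on the other, both called, so its direction is not settled. H2-D1 was -3.32 ± 0.25 and had 7 other probe sets that ranged from -6.52 to 6.71, of which 3 were called the same way and 2 the opposite way. H2-K1 was -2.79 ± 0.19 and its 3 other probe sets were all called lower, from -3.93 to -1.81. Both are class I genes of the major histocompatibility complex, whose haplotypes differ between these strains. Strain differences in sequence under the probes and in transcript level cannot be told apart with these arrays. Nor can fewer cells of a type and less RNA per cell be told apart in whole liver.

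The same comparison on the control diet called 2647 genes (19.4%), 1464 higher (10.7%) and 1183 lower (8.68%). The 2 comparisons share no array. A total of 1388 genes were called on both diets in the same direction, which is 49.1% of the calls on the restricted diet and 52.4% of those on the control diet, and 4 were called in opposite directions. Across genes the 2 differences correlated with Pearson r = 0.690, over genes that are not independent. A further 1433 genes passed the threshold on the restricted diet alone, but 1280 of them (89.3%) had the same sign on the control diet. Passing on 1 diet and not on the other does not show that the difference changed. The difference between the 2 strain differences was therefore tested, as the interaction of strain and diet, and it was called in 69 genes (0.506%), 42 upward (0.308%) and 27 downward (0.198%). No overlap between C3H/HeJ and the other mice was found for 69 genes (0.506%) on the control diet. Of the 76 genes (0.558%) in which C3H/HeJ did not overlap with the other mice on the restricted diet, 69 were called the same way on the control diet.

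**Figure D2:**
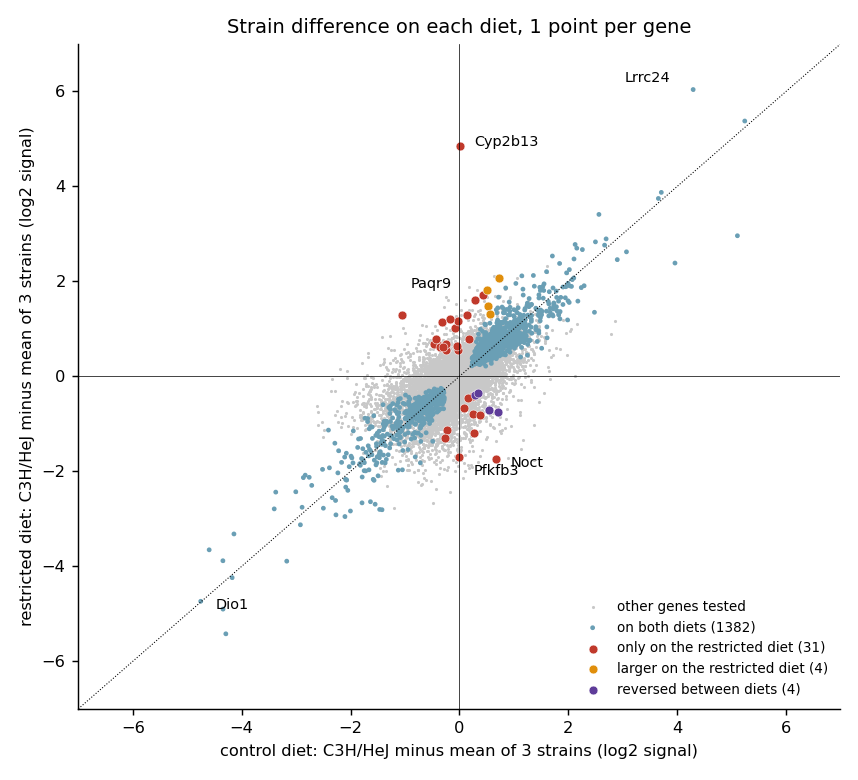
Strain difference of each of 13630 genes, C3H/HeJ minus the mean of 3 strains in log2 signal, on the control diet (horizontal) and the restricted diet (vertical), with the dotted line marking equal differences. Most called genes lie along that line, while Cyp2b13 sits at 4.84 on the restricted diet and 0.01 on the control diet.

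A strain difference was counted as found only on the restricted diet when it was called there, not called on the control diet, and the interaction was called in the same direction. This held for 31 genes (0.227%), 20 higher in C3H/HeJ (0.147%) and 11 lower (0.0807%). In 29 of the 31 the mean of C3H/HeJ lay beyond those of all 3 strains, and in 15 the difference was called against each strain. The counts moved with single arrays. There were 31 higher and 20 lower without DBA/2J restricted replicate 6, and 24 and 13 without C57BL6/J restricted replicate 2. Higher genes numbered 12 without C3H/HeJ restricted replicate 3 and 10 without replicate 6. Lower genes numbered 7 without C3H/HeJ restricted replicate 3, 5 or 6 or C57BL6/J restricted replicate 4, 6 without C57BL6/J restricted replicate 5, and 5 without C3H/HeJ restricted replicate 1 or 129S1/SvImJ restricted replicate 2. Of the 16 genes named by rule from this set, Cyp2b13, Paqr9, Atf5, Noct and Kpna2 kept their interaction call in every setting in which they were tested and without any 1 of the 32 restricted arrays. Cyp2b13 left the test under the stricter filter on low signals, so it was tested in 15 settings and the others in 16.

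Cyp2b13, a cytochrome P450 of the 2B family expressed mainly in female mouse liver, gave the largest such difference of the 31. On the restricted diet the lowest, median and highest log2 signals were 8.97, 10.75 and 12.88 in C3H/HeJ, 3.31, 4.44 and 6.98 in 129S1/SvImJ, 5.40, 6.64 and 8.32 in C57BL6/J and 4.49, 6.17 and 8.31 in DBA/2J. All 8 C3H/HeJ mice lay above the other 24. On the control diet the medians were 4.64, 4.68, 4.42 and 4.25 in the same order, and the groups overlapped. The strain difference was 4.84 ± 0.55, adjusted p = 3.88e-10 on the restricted diet, 28.7-fold, and 0.01 ± 0.55, adjusted p = 0.99 on the control diet, and the interaction was 4.83 ± 0.78, adjusted p = 0.000173. Restriction raised Cyp2b13 by 6.26 in C3H/HeJ and by 1.43 on average in the other 3. Most values outside the restricted C3H/HeJ group were below the mean array median, which makes the size uncertain, and with an offset added to the signals the interaction was 4.45.

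Cyp2b9, another female-biased member of the family, gave a different pattern. The restricted medians were 12.85 in C3H/HeJ, 6.05 in 129S1/SvImJ, 12.53 in C57BL6/J and 11.19 in DBA/2J, so C3H/HeJ and C57BL6/J overlapped. The strain difference was 2.96 ± 0.57 on the restricted diet and 5.11 ± 0.57, adjusted p = 3.32e-10 on the control diet, and the interaction was -2.14 ± 0.81, adjusted p = 0.353. The 2B transcripts are close in sequence, and hybridization of 1 to the probes of another was not tested. The restricted call of Cyp2b9 was lost without 129S1/SvImJ.

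Paqr9, a receptor-family membrane protein, was the other gene in the named set without overlap between C3H/HeJ and the 24 other restricted mice. Its lowest, median and highest signals were 11.92, 12.59 and 12.77 in C3H/HeJ and 9.25, 10.74 and 11.85 in the others, a difference of 1.72 ± 0.18, adjusted p = 4.55e-11. On the control diet the difference was 0.42 ± 0.18, adjusted p = 0.0953. Here the estimate of the diet change was smaller in C3H/HeJ. Restriction changed Paqr9 by -0.69 (adjusted p = 0.0822) in C3H/HeJ and by -1.98 (adjusted p = 3.93e-19) in the others. The interaction was 1.29 ± 0.26, adjusted p = 0.00426, and the other probe set of the gene gave a restricted difference of 1.68, while its interaction of 0.94 was not called in the table of every probe set (adjusted p = 0.246).

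Atf5, a transcription factor of the amino acid and mitochondrial stress response, had medians of 12.45 in restricted C3H/HeJ mice against 11.83, 11.11 and 11.27 in 129S1/SvImJ, C57BL6/J and DBA/2J. The strain difference was 1.14 ± 0.22 on the restricted diet and -0.33 ± 0.22 on the control diet (limma, adjusted p = 0.296). Against 129S1/SvImJ alone the restricted difference was 0.67 and not called (limma, adjusted p = 0.0653). The interaction was 1.47 ± 0.30, adjusted p = 0.00651, with a diet change of -0.10 in C3H/HeJ and -1.57 in the others. Cyp8b1 is the enzyme that sets the share of cholic acid among bile acids. Its medians were 14.48 in C3H/HeJ and 13.41, 12.61 and 13.29 in the others, the strain difference was 1.29 ± 0.18, and the diet changes were 0.22 and -0.93. Its interaction, 1.15 ± 0.25, adjusted p = 0.0125, was lost when 129S1/SvImJ or C57BL6/J was left out of the mean. Nt5e, the ectoenzyme CD73 that makes adenosine from AMP, rose with restriction in C3H/HeJ, by 1.22 against 0.04 (adjusted p = 0.849) in the others. It was called against the mean, at 1.16 ± 0.17, with an interaction of 1.18 ± 0.23, adjusted p = 0.00371, but DBA/2J mice reached 10.46, above the highest C3H/HeJ value of 10.28. The Nt5e interaction was lost with all 96 arrays and without C57BL6/J.

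The other named genes that were higher only on this diet had differences of 1.60 ± 0.23 for Cldn1, a tight junction protein, 0.79 ± 0.22 for Sdf2l1, an endoplasmic reticulum chaperone component, and 0.74 ± 0.19 for 2010003K11Rik. The interactions of Cldn1 and Sdf2l1 were each lost in 8 of 16 settings, and in 11 and 5 of the 32 fits that left out a restricted array. That of 2010003K11Rik was lost without 129S1/SvImJ or C57BL6/J.

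Noct and Usp2, known for strong daily rhythms, were lower only on the restricted diet. Noct, the phosphatase nocturnin, had lowest, median and highest signals of 7.03, 8.97 and 10.45 in C3H/HeJ and 9.51, 10.65 and 12.13 in the other restricted mice. Of the 24 others, 9 lay at or below the highest C3H/HeJ mouse. The strain difference was -1.75 ± 0.32, adjusted p = 4.49e-05 on the restricted diet and 0.67 ± 0.32, adjusted p = 0.139 on the control diet. Noct fell by 1.45 with restriction in C3H/HeJ and rose by 0.97 in the others, which gave an interaction of -2.42 ± 0.46, adjusted p = 0.00275. Usp2, a rhythmic deubiquitinase, had medians of 9.84 in C3H/HeJ, 11.99 in 129S1/SvImJ, 11.35 in C57BL6/J and 9.97 in DBA/2J, and the DBA/2J and C3H/HeJ ranges overlapped. Its interaction of -1.46 ± 0.37, adjusted p = 0.043 was lost in 8 of 16 settings (among them the replicate number as a block) and in 13 of the 32 fits that left out a restricted array.

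Among the 20 measured genes of the circadian clock list 3 were higher in C3H/HeJ, 3 were lower, and the median difference was -0.05, beside 0.00 over all genes. That is 30% of the list, against 20.7% called over all genes, 11.5% higher and 9.26% lower. Ciart, a repressor within the clock, was at 5.57, 6.99 and 7.83 in C3H/HeJ against 5.38, 8.98 and 10.46 in the others, a difference of -1.90 ± 0.40, adjusted p = 0.000253 on this diet and 0.24 ± 0.40, adjusted p = 0.717 on the control diet. Its interaction of -2.14 ± 0.56, adjusted p = 0.0547 did not pass the threshold. Nfil3, a repressor of D-box genes, was higher by 1.40 ± 0.24, and Clock, the activator itself, by 0.55 ± 0.18. The other Clock probe sets, at 0.07, 0.53 and -0.31, were not called. Per3 was higher by 1.91 ± 0.22 on its brightest probe set, but of its 5 other probe sets 2 were called higher and 1 lower. The kinase Csnk1d was at -0.54 ± 0.15. The other 14 listed genes apart from Usp2, among them Arntl, Per1, Per2, Cry1 and Nr1d1, were not called.

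The upstream sequences of Cyp2b13 and of 3 rhythmic genes are shown because these genes carry the diet-dependent differences or the clock pattern, and they were chosen after their values were seen. Each is the 250 bases before the transcription start in RefSeq, build GRCm38.p6, which is the C57BL/6J sequence, with C3H/HeJ sequence not used here. The positions are chr7:26061245-26061494, plus strand for Cyp2b13, chr3:51224197-51224446, plus strand for Noct, chr9:44084670-44084919, plus strand for Usp2 and chr3:95882229-95882478, minus strand for Ciart. Capitals mark matches to an E-box (CACGTG), a D-box (TTATGTAA) or a STAT5 motif (TTCNNNGAA), each searched separately on both strands.
Cyp2b13: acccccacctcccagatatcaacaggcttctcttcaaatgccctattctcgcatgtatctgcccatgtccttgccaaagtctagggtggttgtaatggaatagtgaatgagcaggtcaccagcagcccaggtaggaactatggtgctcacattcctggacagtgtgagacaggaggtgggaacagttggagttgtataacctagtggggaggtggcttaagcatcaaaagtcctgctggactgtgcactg
Noct: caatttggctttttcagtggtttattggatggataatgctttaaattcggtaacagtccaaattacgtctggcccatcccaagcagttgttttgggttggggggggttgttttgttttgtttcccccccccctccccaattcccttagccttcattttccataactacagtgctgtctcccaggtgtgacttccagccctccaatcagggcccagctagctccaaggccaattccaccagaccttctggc
Usp2: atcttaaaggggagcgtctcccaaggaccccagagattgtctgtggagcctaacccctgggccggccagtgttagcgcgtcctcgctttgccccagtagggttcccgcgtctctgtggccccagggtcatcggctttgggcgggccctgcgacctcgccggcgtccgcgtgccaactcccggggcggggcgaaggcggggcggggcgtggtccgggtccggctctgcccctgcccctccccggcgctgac
Ciart: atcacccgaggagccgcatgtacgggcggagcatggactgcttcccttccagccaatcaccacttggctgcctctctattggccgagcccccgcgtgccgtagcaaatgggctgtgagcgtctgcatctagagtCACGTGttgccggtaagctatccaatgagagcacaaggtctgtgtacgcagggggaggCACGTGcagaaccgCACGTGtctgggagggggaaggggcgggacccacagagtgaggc
Ciart holds 3 E-boxes in this window, and the other 3 windows hold none of the 3 motifs. Of 32851 promoter windows of the same length, 6.02% held an E-box, 0.819% a D-box and 7.02% a STAT5 motif. A match is a description of the letters and not of binding.

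The other genes lower only on this diet included Pfkfb3, the kinase and phosphatase that sets the glycolytic activator fructose bisphosphate, and Kpna2, a nuclear import adaptor. Kpna2 ranged from 9.28 to 10.24 in C3H/HeJ and from 10.05 to 11.11, 10.87 to 11.55 and 10.34 to 11.10 in 129S1/SvImJ, C57BL6/J and DBA/2J, with 1 of 24 other mice inside the C3H/HeJ range. Its difference was -1.13 ± 0.11, adjusted p = 1.85e-12, its interaction -0.91 ± 0.16, adjusted p = 0.0005, and its diet change -1.22 in C3H/HeJ against -0.31. Pfkfb3 differed by -1.69 ± 0.30, and its interaction of -1.68 ± 0.42, adjusted p = 0.042 was lost in 9 of 16 settings and in 8 of the 32 fits that left out an array. The differences of Syde2, Lin7a, a junction scaffold, Spata5 and Tubb5, a beta-tubulin, were -1.30, -0.79, -0.81 and -0.67. The interaction of Tubb5 was lost in 22 of the 32 fits that left out an array and in 9 of 16 settings. That of Spata5 was lost in 9 such fits and 6 settings, and its other probe set was at 0.53 without a call. The interactions of Syde2 and Lin7a were lost in 3 and 2 settings.

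**Figure D3:**
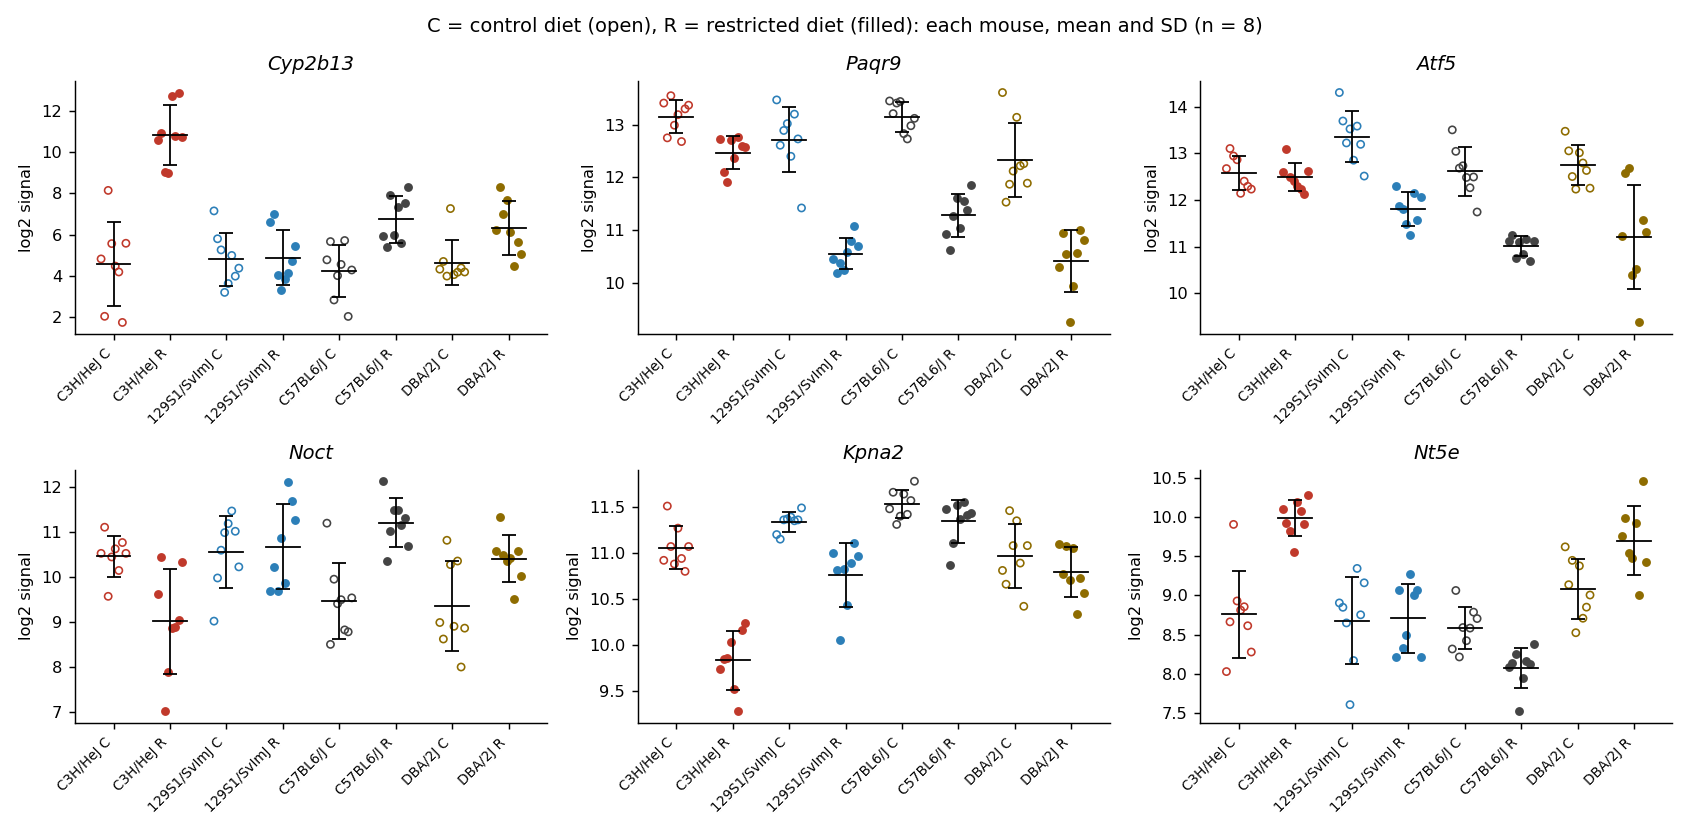
Log2 signal of Cyp2b13, Paqr9, Atf5, Noct, Kpna2 and Nt5e in each mouse on the control diet (open) and the restricted diet (filled), with the mean and SD of each group (n = 8). Restricted C3H/HeJ mice stand above the other restricted mice for Cyp2b13 and Paqr9, while the control groups of these genes overlap.

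The remaining 15 genes of the 31 were not among the 16, because their interactions were smaller or their C3H/HeJ means did not lie beyond every other strain mean. Ntrk2, a neurotrophin receptor, had the smallest interaction p of all 31 (interaction 1.38 ± 0.19, adjusted p = 5.13e-06, restricted difference 1.20 ± 0.13), but its C3H/HeJ mean did not lie beyond that of every strain. Plin2, the coat protein of lipid droplets, was higher by 0.68 ± 0.18 on the restricted diet. On the control diet it was at -0.47 ± 0.18 (limma, adjusted p = 0.0542), just short of a call in the opposite direction. The restricted differences of Cdc42ep5, Tars, Suox, Lhpp, Tor1aip2, Tfpi2, Tlcd2, Pex16 and Sdc1 lay between 0.55 and 1.02. Their interactions had adjusted p (limma) from 0.00312 for Tlcd2 to 0.0458 for Cdc42ep5 and Pex16, close to the threshold. Suox was not called against 129S1/SvImJ or C57BL6/J, Lhpp and Tfpi2 not against C57BL6/J, and Cdc42ep5 not against DBA/2J. The other probe sets of Sdc1 had no called interaction. The 8 C3H/HeJ mice lay above all others for Tars. Serpinb1a was at 1.30 ± 0.43, likewise not beyond every strain, and at -1.06 on the control diet (limma, adjusted p = 0.0698). Lower genes were Polr1c at -0.45 ± 0.09, Ndufaf4 at -0.42 ± 0.12 and Zfp445 at -0.36 ± 0.12. On the control diet Zfp445 was at 0.32 (limma, adjusted p = 0.0561).

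Over all genes tested the diet change was called in 2.94% in C3H/HeJ (1.62% up, 1.32% down) and in 18.4% in the mean of the 3 strains (8.66% up, 9.73% down). In 18 of the 31 genes the diet change was called in the mean of the 3 strains and not in C3H/HeJ, in 8 in C3H/HeJ and not in the mean of the 3, and in 5 in both. Among the 20 genes higher in C3H/HeJ, the mean of the 3 strains had fallen in 14 and C3H/HeJ had risen in 6. Among the 11 lower genes, C3H/HeJ had fallen in 7 and the mean of the 3 had risen in 5. These counts use the same arrays as the interaction and are a description, and the change in C3H/HeJ rests on 16 mice against 48 for the mean of the 3.

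**Figure D4:**
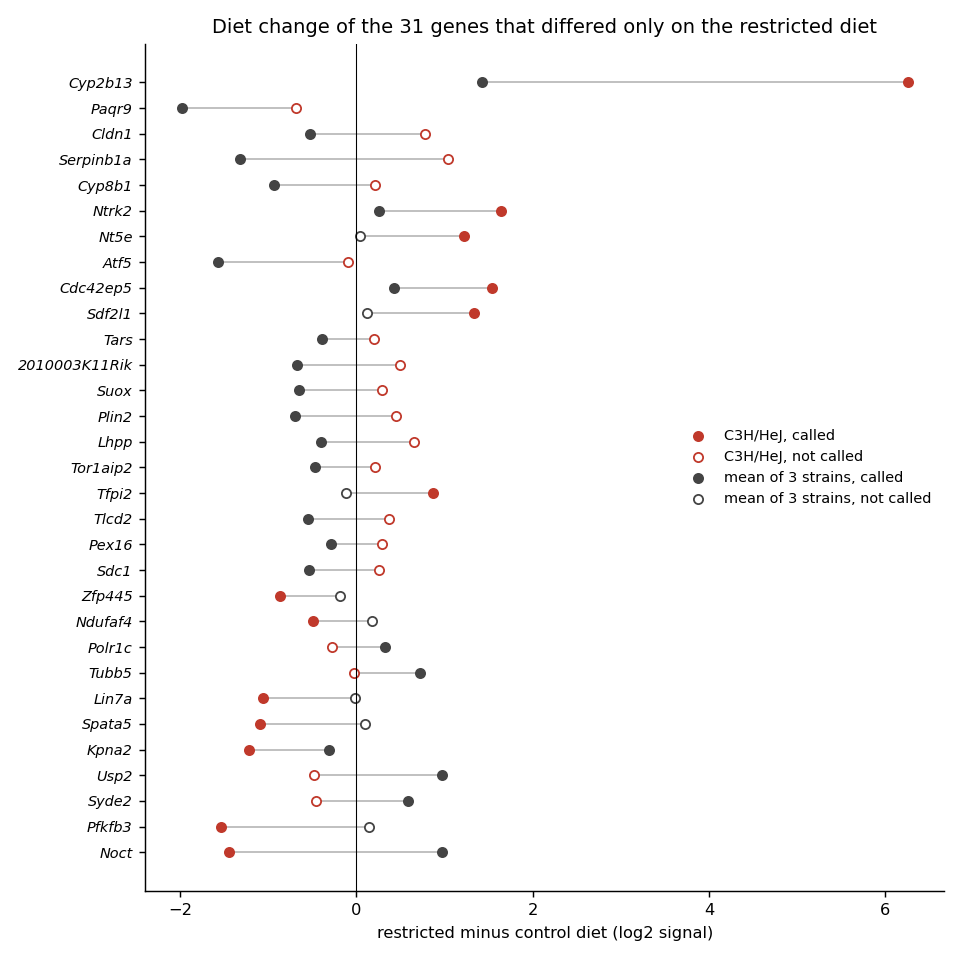
Diet change, restricted minus control in log2 signal, of the 31 genes that differed only on the restricted diet, in C3H/HeJ (red) and in the mean of the 3 strains (grey), filled where called. Cyp2b13 rose by 6.26 in C3H/HeJ and by 1.43 in the others, while for Paqr9 the mean of the 3 strains fell by 1.98.

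A few strain differences changed size or sign with the diet without being limited to it. In 4 genes the difference was called on both diets and was larger on the restricted diet, all higher in C3H/HeJ. Ddc, the aromatic amino acid decarboxylase, differed by 2.08 ± 0.22 on the restricted and 0.73 on the control diet. Rdh16, a retinol dehydrogenase, differed by 1.81 ± 0.17 and 0.51, and Gas6, a ligand of receptor tyrosine kinases, by 1.48 ± 0.13 and 0.53. In Gas6 and Rdh16 the 8 C3H/HeJ mice lay above the 24 others on the restricted diet. Psen2, a presenilin, differed by 1.31 ± 0.11 and 0.56. The calls of Gas6 and Psen2 were lost when all probe sets of a gene were averaged, and the other probe set of each was lower in C3H/HeJ without a call, at -0.70 and -0.68.

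In 4 genes the sign was reversed, all lower in C3H/HeJ on the restricted diet and higher on the control diet. Cyp26a1, which breaks down retinoic acid, went from 0.70 on the control diet to -0.75 ± 0.23 on the restricted diet. Its restricted medians were 7.67 in C3H/HeJ, 7.85 in 129S1/SvImJ, 7.76 in DBA/2J and 9.94 in C57BL6/J, so C57BL6/J stood highest, and the call was lost without that strain and without C3H/HeJ restricted replicate 8. Pcsk4, a proprotein convertase, went from 0.54 to -0.72 ± 0.20, Aopep, an aminopeptidase, from 0.28 to -0.38 ± 0.10, and Pik3r1, a regulatory subunit of PI3 kinase, from 0.34 to -0.35 ± 0.12. For Aopep the restricted call was lost in 3 of 17 settings, among them averaged probe sets. Its 2 other probe sets were at -0.06 and -0.01 without a call. The restricted call of Pik3r1 was lost without any 1 of 4 C3H/HeJ mice, namely replicates 1, 5, 7 and 8.

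All called genes of the lipid synthesis lists were higher in C3H/HeJ. The elongase Elovl3, called lower at -1.10 ± 0.22, was not in these lists but among the male-biased genes. Of 26 fatty acid and triglyceride synthesis genes measured, 11 were higher and 0 lower, with a median difference of 0.36 beside 0.00 over all genes. That is 42.3% of the list, against 20.7% called over all genes, 11.5% higher and 9.26% lower. Fasn, fatty acid synthase, had lowest, median and highest signals of 12.84, 14.14 and 15.03 in C3H/HeJ and 7.02, 11.82 and 13.83 in the others, with 3 of the 24 reaching the C3H/HeJ range and a difference of 2.25 ± 0.44, adjusted p = 0.000112. Acly, which supplies cytosolic acetyl-CoA, was at 13.78, 15.06 and 15.33 against 10.86, 12.98 and 14.48, a difference of 1.86 ± 0.27, adjusted p = 4.7e-07. The elongase Elovl6 differed by 1.95 ± 0.31, the desaturase Fads1 by 1.40 ± 0.23, and the carboxylases Acaca and Acacb by 1.27 ± 0.24 and 1.87 ± 0.50. Pnpla5, a lipase, differed by 1.88 ± 0.32, and Me1, Gpam, Fads2 and Elovl5 by 0.34 to 1.14. The listed members named here beyond the leading 3 were picked after their values were seen. The other probe set of Fads1 differed by 0.02 and was not called.

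The lipid difference was also present on the control diet, where 13 of the 26 were higher and 0 lower, and the interaction was called in 0 of the 26. Over all genes 10.7% were higher and 8.68% lower on the control diet, and the interaction was called in 0.506%. Some members had unequal estimates on the 2 diets. Lpin1 was at 2.13 on the control diet and 0.00 ± 0.39 on the restricted diet (interaction -2.13 ± 0.55, adjusted p = 0.0547), Pnpla5 at 0.17 and 1.88 (interaction 1.71 ± 0.45, adjusted p = 0.0586), and Srebf1, the transcription factor of this pathway, at 1.21 and 0.21 ± 0.25 (interaction adjusted p = 0.272). Scd1, a desaturase, was at 0.53 ± 0.22, adjusted p = 0.0796 on its brighter probe set, while the other was called higher at 1.74. Of 20 cholesterol synthesis genes 11 were higher and 0 lower on the restricted diet, with a median of 0.75, and 7 were higher and 0 lower on the control diet, with a median of 0.43. On the restricted diet that is 55% of the list, against 20.7% called over all genes. Sqle differed by 1.59 ± 0.46, Lss by 1.44 ± 0.22, Dhcr7 by 1.22 ± 0.23, Pmvk by 1.19 ± 0.22 and Tm7sf2 by 1.10 ± 0.14, and 0 of the 20 had a called interaction.

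**Figure D5:**
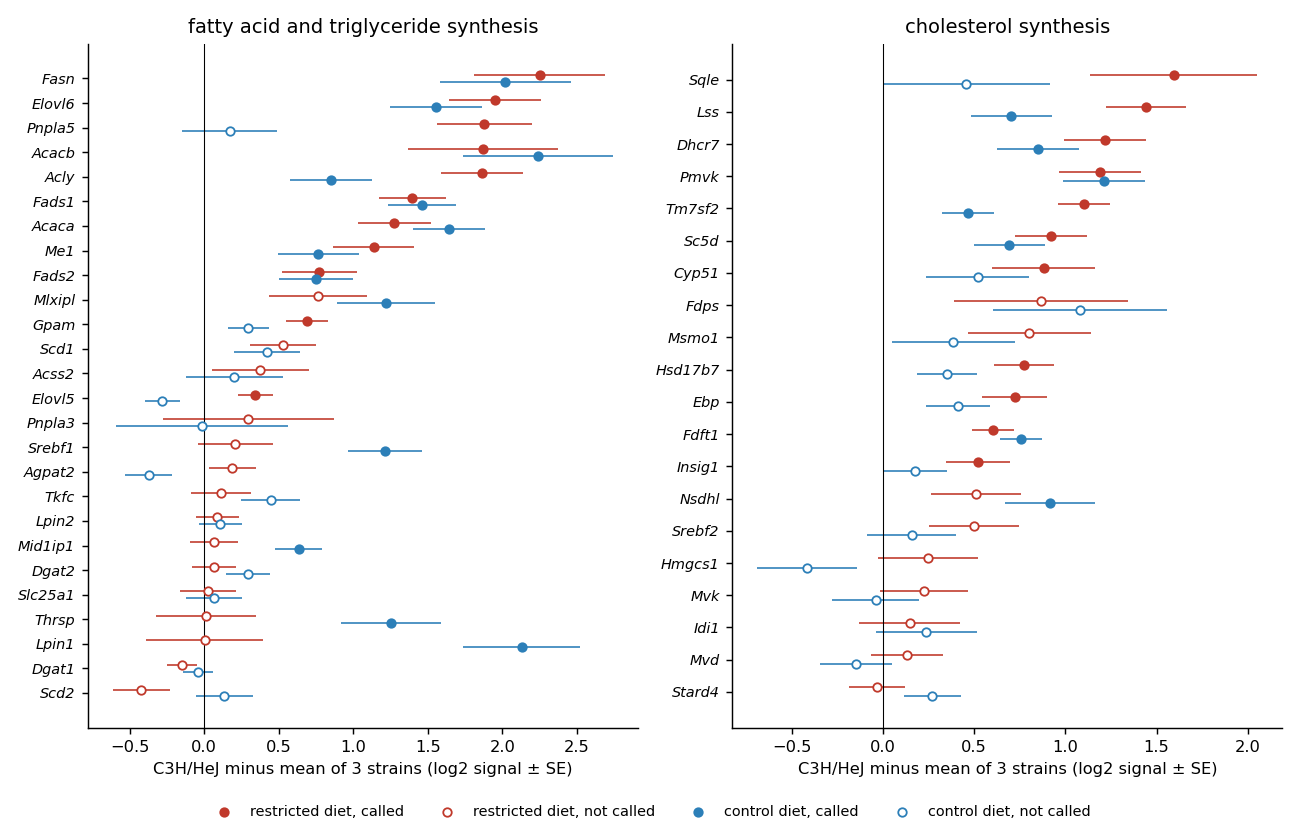
Strain difference, C3H/HeJ minus the mean of 3 strains in log2 signal with its SE, of genes making fatty acids and triglycerides (left, 26 measured) and cholesterol (right, 20 measured) on the restricted diet (red) and the control diet (blue), filled where called. All 11 called genes of each list on the restricted diet lie to the right of 0.

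Of 30 fatty acid oxidation and ketogenesis genes 3 were higher and 3 lower, a share of 20% near the 20.7% called over all genes, with a median of 0.06. Vnn1, a pantetheinase regulated by PPAR alpha, differed by -1.99 ± 0.22 and Cyp4a14 by -1.13 ± 0.30, a call lost without C57BL6/J. Pdk4 differed by 0.98 ± 0.35 and Ppara by 0.68 ± 0.23. On the control diet 10 of the 30 were lower and 0 higher, beside 8.68% lower and 10.7% higher over all genes. Gluconeogenesis had 1 higher of 11 (9.09%), Pcx at 0.50 ± 0.15, while Pck1 was at 0.30 ± 0.22, adjusted p = 0.348. Fgf21, a fasting hormone, was at 0.70 ± 0.28, adjusted p = 0.0706 and Igf1 at 0.11 ± 0.19, adjusted p = 0.743, although 1 of the 3 other Igf1 probe sets was called higher at 0.59. Glycolysis had 3 higher of 11 (27.3%, against 20.7% called over all genes), from 0.39 to 0.45, but these calls were not stable. Those of Pklr and Pfkl were lost in 8 and 9 of 17 settings and in 12 and 8 of the 32 fits that left out a restricted array, and that of Slc2a2 in 5 settings.

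Genes of growth hormone and insulin signalling had 8 higher and 3 lower of 30, with a median of 0.25. That is 36.7% of the list, against 20.7% called over all genes. Onecut1, a liver transcription factor, differed by 1.86 ± 0.33, Socs2, a feedback inhibitor of growth hormone signalling, by 1.37 ± 0.27, Ppp1r3g, a glycogen-targeting subunit, by 1.96 ± 0.39 and Stat5b, which carries the growth hormone signal, by 0.80 ± 0.12. The other probe set of Stat5b was at -0.01 and not called, and the Socs2 call was lost when probe sets were averaged. Of 13 female-biased liver genes 5 were higher and 1 lower, and of 16 male-biased genes 2 were higher and 3 lower. The shares called were 46.15% and 31.25%, against 20.7% over all genes, of which 11.5% were higher and 9.26% lower. Besides the 2B genes and Hao2, the organic anion transporters Slc22a26 and Slc22a27 were higher by 1.72 ± 0.40 and 1.47 ± 0.48. The 1 lower female-biased gene was Cyp17a1, at -3.65. Elovl3, a male-biased elongase, was at -1.10 ± 0.22, and Hsd3b5, a male-biased steroid dehydrogenase, at 1.44 ± 0.38, where the medians of C3H/HeJ, 129S1/SvImJ, DBA/2J and C57BL6/J were 12.09, 11.70, 11.99 and 8.06. Its call was lost without C57BL6/J. Nnmt and Slco1a1 were at -0.01 ± 0.33, adjusted p = 0.988 and -0.37 ± 0.22, adjusted p = 0.236.

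Among enzymes of drug and xenobiotic handling, 7 carboxylesterase and flavin monooxygenase genes of 14 were higher and 2 lower, with a median of 0.32. That is 64.3% of the list. The list counts here are set against 20.7% called over all genes, 11.5% higher and 9.26% lower. Ces1e and Ces2g differed by 0.75 ± 0.14 and 0.75 ± 0.18, and Ces4a by -1.38 ± 0.31. Of 25 genes of P450 families 1 to 3 and their receptors 5 were higher and 3 lower, 32% of the list. Cyp2c37 differed by 0.93 ± 0.16, but by -1.10 without 129S1/SvImJ, where the 129S1/SvImJ median was 7.74 against 12.91 in C3H/HeJ, 14.24 in C57BL6/J and 13.68 in DBA/2J. Conjugating enzymes had 4 higher and 5 lower of 32, 28.1% of the list. Among them were Ugt3a1 at -1.26 ± 0.16 and Tpmt at 0.91 ± 0.14, a call lost when probe sets were averaged. Of 20 bile acid genes 4 were higher and 1 lower, 25% of the list. Besides Cyp8b1 these were Abcc2, the canalicular export pump, at 1.17 ± 0.17, Amacr at 0.83 ± 0.10 (0.09 and not called without 129S1/SvImJ), Abcg5 at 0.68 ± 0.17 and the uptake carrier Slco1b2 at -0.59 ± 0.14. For Abcc2 the C3H/HeJ range was 11.34 to 12.06, and 7 of the 24 others lay at or above 11.34 and reached 12.15. The lowest C57BL6/J mouse, replicate 2, was at 10.64 and the next lowest at 11.59, so C3H/HeJ and C57BL6/J were not apart. Cyp7a1, which starts the classic route from cholesterol to bile acids, was at -0.52 ± 0.23, adjusted p = 0.0965, and passed the threshold at -0.62 without DBA/2J restricted replicate 6.

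Interferon-stimulated genes had 7 higher and 0 lower of 28, with a median of 0.33. The 25% called compares with 20.7% called and 11.5% higher over all genes. Irf7, a transcription factor of the interferon response, differed by 0.89 ± 0.16, Oas1a by 0.98 ± 0.18 and Mx2 by 1.66 ± 0.40. Xaf1 was at 1.90 ± 0.22, but its other probe set was called the opposite way at -1.95, so its direction is not settled. Acute phase and complement genes had 8 higher and 1 lower of 33, 27.3% called against 20.7% over all genes. Orm2 at 1.40 ± 0.34 and Orm3 at -1.39 ± 0.46 led in size. These near-identical genes opposed each other and are uncertain as close copies. Also called were Hamp2, a hepcidin, at 1.13 ± 0.16, complement C1ra at 0.72 ± 0.14 and Hc, complement component 5, at 0.97 ± 0.16. The Hc medians were 14.18 in C3H/HeJ, 14.16 in 129S1/SvImJ, 13.77 in C57BL6/J and 12.22 in DBA/2J, a strain known to lack the protein, and the Hc call was lost without DBA/2J. That of Hamp2 was lost when probe sets were averaged. Of the 24 other mice, 16 lay at or below the highest C3H/HeJ value of Hamp2, 16.45. Those at or above the lowest C3H/HeJ value, 15.13, numbered 8 and reached 17.38. Tlr4 was at 0.15 ± 0.39, adjusted p = 0.821. Genes of the histocompatibility region had 7 higher and 3 lower of 25, 40% called against 20.7% over all genes. The higher ones included Tapbp at 0.99 ± 0.22 and Tap2 at 0.83 ± 0.22.

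The counts of the other lists are set against 20.7% called over all genes. Apolipoprotein and lipoprotein genes had 6 higher and 3 lower of 23, 39.1%, with Pltp at 1.40 ± 0.22 and Apoa4 at -0.75 ± 0.13. Amino acid breakdown had 4 higher and 2 lower of 25, 24%, with Aldh4a1 at 1.39 ± 0.30 and Csad at -1.15 ± 0.23. Antioxidant genes had 6 higher and 2 lower of 22, 36.4%, with Nnt at 0.84 ± 0.17. For Nnt the C3H/HeJ range was 12.25 to 13.04, and 9 of the 24 others lay at or above 12.25. The 129S1/SvImJ mice other than replicate 5, at 12.05, were at 12.60 or above, so C3H/HeJ did not stand apart from them. Sod2 was at 0.62 ± 0.10, but 1 of its 3 other probe sets was called the opposite way at -0.53, so its direction is not settled. The calls of Sod2 and Nnt were lost when probe sets were averaged. Heat shock and endoplasmic reticulum chaperones had 4 higher and 3 lower of 33, 21.2%, with Hspa1b at 1.59 ± 0.40. Glucocorticoid targets had 0 higher and 3 lower of 18, namely Klf9 at -1.09 ± 0.20, Angptl4 at -0.81 ± 0.14 and Fkbp5 at -0.78 ± 0.27, which is 16.7% called against 20.7% over all genes. The Fkbp5 call was lost without 129S1/SvImJ and without C3H/HeJ restricted replicate 1, 3 or 4. Oxidative phosphorylation had 1 higher and 4 lower of 30, 16.7%, and one-carbon and serine metabolism 3 and 1 of 20, 20%. Of 7 urinary protein and lipocalin genes 0 were higher and 2 lower, Mup5 at -1.75 ± 0.23 and Obp2a at -2.43 ± 0.41. Serpina12, a visceral fat adipokine also made in liver, was higher by 2.54 ± 0.35. The list of genes with known variants between inbred strains had 4 higher and 1 lower of 17.

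The counts of cell type markers are set against 20.7% called over all genes, 11.5% higher and 9.26% lower. Of 13 Kupffer cell and macrophage markers 2 were higher, Cd68 at 1.16 ± 0.22 and C1qb at 0.79 ± 0.25, and Cd163 was lower at -0.94 ± 0.21. Their summed log2 level ranged from 13.87 to 15.94 in C3H/HeJ, 13.42 to 14.77 in 129S1/SvImJ, 13.60 to 15.15 in C57BL6/J and 14.32 to 15.14 in DBA/2J, and their part in the immune gene results was not tested. Endothelial markers had 2 higher and 1 lower of 10, and stellate cell markers 1 higher and 2 lower of 11. Erythroid markers had 2 higher of 3, Alas2 at 0.58 ± 0.14 and Klf1 at 0.46 ± 0.16. Adipocyte markers had 1 lower of 4, Pparg, with 3 of the 4 below the array median in C3H/HeJ, muscle markers 1 lower of 5, Ckm at -1.76 ± 0.58, with 5 of the 5 below it, and pancreatic markers 1 lower of 4. Of B cell markers 1 of 5 was lower. No marker was called among 6 of T and NK cells, 5 of neutrophils, 4 of cholangiocytes and 6 of proliferating cells.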

How the data were processed

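Liver RNA of 96 mice was hybridized to Affymetrix whole-genome mouse arrays, 1 per mouse. The deposited values are MAS5 intensities per probe set, with a 2% trimmed mean of 500.0 on every array. MAS5 is named per the submitters' processing notes. Of 45101 probe sets, 34958 had 1 gene symbol in the platform annotation, 932 several and 9211 none, and 34754 matched the GRCm38.p6 gene table. Control probe sets (64) were left out, and probe sets at or above their array's median in at least 8 of 64 arrays were kept (29735). Each of 13630 genes was read from its kept probe set of highest mean signal. Log2 intensities were fitted with limma 3.58.1 in R 4.3.3 (1 mean per group, trended and robust variance, 64 arrays), and p-values were Benjamini-Hochberg adjusted over all genes and called under 0.05. Differences are given ± SE. The number of arrays, 8 per group, limits precision. Arrays are labelled as separate mice.

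Named genes were the 10 largest differences each way called against every strain, the 8 largest interactions each way among genes called only on the restricted diet whose C3H/HeJ mean lay beyond all 3 other means (both with the higher side's mean at or above the mean array median), up to 4 larger and up to 4 reversed, up to 3 per gene list by p, and a fixed set of study genes. Members and lists were chosen with earlier results of these data known. The alternatives were other scalings, an offset, filters, probe set rules, variance models, array weights, all 96 arrays, a fold minimum, a replicate block, and leaving out each comparison strain or each restricted array. The fit was tested on simulated data. Correlations between the deviations of same-numbered mice averaged 0.002 to 0.030 per number, with single pairs from -0.189 to 0.341, so the numbers were not taken to pair the samples.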

Additional observations from a re-analysis of the deposited data

Results flagged for a closer look

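In 20 of 172 combinations of a gene described by mouse and a restricted group of 8, the highest or lowest mouse lay far from the nearest other mouse by more than Dixon's critical share of the group's range. Chance alone gives about 1 in 20. DBA/2J restricted replicate 6, the array with the high median signal, was the distant one for Ccdc30 at 6.765, Ccl27a at 7.454, Cyp17a1 at 4.572, Dio1 at 11.19, H2-D1 at 9.302, Rdh16 at 9.355 and Sult1e1 at 5.326 on the log2 scale. Among 129S1/SvImJ mice the distant ones were replicate 2 for 2010003K11Rik at 7.707, replicate 3 for Pfkfb3 at 5.999, replicate 6 for Sult1e1 at 11.88 and replicate 5 for Usp2 at 11.16. Among DBA/2J mice the distant ones were replicate 1 for 2010003K11Rik at 8.456 and replicate 8 for Pfkfb3 at 5.624. Among C3H/HeJ mice the distant ones were replicate 3 for Cyp17a1 at 4.284, replicate 6 for Cyp26a1 at 9.237 and replicate 4 for Psen2 at 12.87. Among C57BL6/J mice the distant ones were replicate 2 for Hsd17b13 at 12.79 and Syde2 at 8.37 and replicate 1 for Psen2 at 11.86 and Rassf4 at 4.974. Over all 122 named genes 79 of 488 combinations (16.2%) had such a mouse, 28 of them DBA/2J restricted replicate 6, 17 C57BL6/J restricted replicate 2 and 7 C3H/HeJ restricted replicate 4.

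In 24 described genes the strain difference itself differed between the diets by the interaction test. The log2 interactions, restricted minus control, above 0 were 2010003K11Rik 1.171, Atf5 1.469, Cldn1 1.314, Cyp2b13 4.829, Cyp8b1 1.147, Ddc 1.349, Gas6 0.9555, Nt5e 1.179, Paqr9 1.294, Psen2 0.7488, Rdh16 1.297 and Sdf2l1 1.222. Those below 0 were Aopep -0.6671, Cyp26a1 -1.455, Kpna2 -0.9104, Lin7a -1.045, Noct -2.42, Pcsk4 -1.252, Pfkfb3 -1.678, Pik3r1 -0.696, Spata5 -1.186, Syde2 -1.045, Tubb5 -0.751 and Usp2 -1.46.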

How the results depend on the processing

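Of the named differences that were called, 2 changed sign in a setting or without an array. Uncalled ones such as Nnmt, Igf1 and Tlr4 also changed sign, without a call. Xaf1 turned to -0.0242 (adjusted p = 0.949) when probe sets were averaged, and Cyp2c37 turned to -1.096 (adjusted p = 1.77e-06) without 129S1/SvImJ. Their main values were 1.90 and 0.93. Counts are given as higher and lower. For the restricted difference, a 1.5-fold minimum left 883 higher, and every probe set gave 2262 lower. For the control difference, a 1.5-fold minimum left 838 and 771, every probe set gave 2036 lower, and array weights gave 2415 and 1948. Differences called against each strain numbered 157 and 125 with the fold minimum, 371 lower with every probe set, 420 and 322 with array weights, and 149 higher with the array median as covariate. Interactions numbered 14 lower with 75th percentile centring, 25 and 14 with all 96 arrays, 201 and 162 with array weights, 43 lower with the covariate, 20 higher without 129S1/SvImJ, 26 and 7 without C57BL6/J, and 73 and 54 without DBA/2J.

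Genes found only on the restricted diet numbered 11 and 7 with 75th percentile centring, 13 and 6 with no filter or with all 96 arrays, 6 lower with averaged probe sets, 13 higher with every probe set or with no trend or robust variance, 77 and 55 with array weights, and 18 lower with the covariate. Without 129S1/SvImJ 12 were higher, without C57BL6/J 7 were higher and 4 lower, and without DBA/2J 17 were lower. Of the 31 genes, 17 were kept with quantile normalization, 15 with 75th percentile centring, 7 without C57BL6/J and 11 without 129S1/SvImJ. The cause was not tested. Leaving out single restricted arrays gave 1324 to 1741 higher and 1046 to 1443 lower on the restricted diet, 1436 to 1815 and 1162 to 1505 on the control diet, 22 to 72 and 18 to 55 interactions, 10 to 31 and 5 to 20 genes only on the restricted diet, and 212 to 315 and 165 to 260 called against each strain. The 22 came without C3H/HeJ restricted replicate 6, and the 72 and 55 without DBA/2J restricted replicate 6. With the replicate number as a block the counts were 1663 and 1328, 1540 and 1226, 49 and 31, 24 and 11, and 289 and 210 in the same order, and 28 of the 31 genes were kept. Probes near background limit the size of differences where a group lies below the mean array median of 6.65. The stricter filter gave no value for Cyp2b13, Lrrc24, Corin and Hao2, which did not pass it.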

Other observations

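The opposite class, strain differences called on the control diet alone with a called interaction, held 28 genes, 11 higher in C3H/HeJ and 17 lower. Among the higher genes were Cyp2c70, the enzyme that makes muricholic acids in mice, at 1.64 ± 0.16 on the control diet and 0.11 on the restricted diet, and Cyp39a1, an oxysterol hydroxylase and female-biased, at 1.14 ± 0.19 and -0.15. Ak4, a mitochondrial adenylate kinase, was at 0.84 ± 0.13 and -0.24. Among the lower genes were the peroxisomal oxidation enzymes Ehhadh at -1.23 ± 0.18 and Crot at -1.10 ± 0.18, which on the restricted diet were at 0.34 and 0.22 without a call. Hsd3b7, a bile acid synthesis enzyme, was at -0.81 ± 0.12 on the control diet and 0.02 on the restricted diet. Insig2, which retains SREBP in the endoplasmic reticulum, was at -0.94 ± 0.21 and 0.50, S100a10 at -1.57 ± 0.21 and -0.18, and Ldha, lactate dehydrogenase, at -0.89 ± 0.13 and -0.11. These genes were picked after their values were seen, and p-values are those of limma with Benjamini-Hochberg adjustment.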
